A study of Mus musculus with 14 samples.

Results

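The comparison described here sets plantaris muscle at day 14 of functional overload against plantaris at day 0, and asks which genes still differed after 2 weeks of loading. Its members are the 4 arrays that the labels assign to those time points, out of 14 arrays in the series, and all 19938 genes with a single annotated symbol. The animals of both groups were male C57BL/6J mice aged 5 months. Overload came from synergist ablation, an operation that removes muscles sharing the plantaris's action, so that the plantaris carries more load and enlarges. Each array read 1 pool of RNA from 6 animals, one pool of right and one of left muscles per day, on the Affymetrix Mouse Gene 1.0 ST array. The day 0 samples carry no treatment label and the labels name no sham operation, which means that the operation and the load cannot be told apart. The labels do not say whether right and left muscles came from the same animals, so p-values measure how far pools of 1 day differed, in part perhaps for technical reasons, rather than how far mice differ. The hour of tissue collection is not given in the sources used here.

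Skeletal muscle answers a lasting rise in load by enlarging its fibres, and the satellite cells beside the fibres divide and fuse into them. The connective tissue around the fibres, made mainly by fibro-adipogenic progenitors and fibroblasts, is rebuilt at the same time, and macrophages enter the tissue. Fibres carry sets of fast or slow contractile proteins, each encoded by genes of its own, and embryonic forms of these proteins come back during regeneration and rapid growth.

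Levels are given below as log2 of the deposited intensity, and changes as the difference of the 2 arrays' mean at day 14 and the 2 arrays' mean at day 0, with the standard error (SE) of the fit (n = 2 arrays per day). A gene was called when the limma test gave an adjusted p (Benjamini-Hochberg over all genes) under 0.05, and "rose" or "fell" is used for called genes. Of the 19938 genes, 8394 (42.1%) were called, 4269 (21.4%) higher and 4125 (20.7%) lower at day 14. The counts of each list below are to be read beside these shares, and a list near them differs little from all genes. Past 2-fold there were 976 higher (4.9%) and 257 lower (1.29%). The median change over all genes was -0.08. The near-even split of calls depends on scaling: 50.86% of calls were higher with the values as deposited, 43.05% after arrays were set to equal medians, and 36.66% after the genes tested were set to equal medians. Beside this, 42.0% of genes had both day 14 arrays below both day 0 arrays and 30.2% had both above. On arrays the number of samples limits the precision, and the median SE of a change was 0.0988.

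The muscle identity of the samples was borne out by the bright fast sarcomere genes on every array, and their level near the top of the range (the highest log2 intensity was 14.85) may compress their changes. In whole muscle, fewer cells of a type and less RNA per cell cannot be told apart, and this holds for each list below. One library stood apart in a way that touches the largest falls. Genes of hepatocytes, liver cells that muscle pools should lack, summed to an intensity of 26430 in the right and 112712 in the left pool of day 0, against 24968 and 12952 at day 14 (23 genes). None of these genes was at 0, and Alb, the serum albumin gene, read 12.75 and 13.82 at day 0 and 12.85 and 11.60 at day 14. The sums of the other days ranged from 8825 to 117889, the highest being the right pool of day 1. Neutrophil markers summed to 13787 and 7422 at day 0 and to 4401 and 8172 at day 14 (17 genes), so those groups overlapped. The part of either in the results was not tested.

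**Figure D1:**
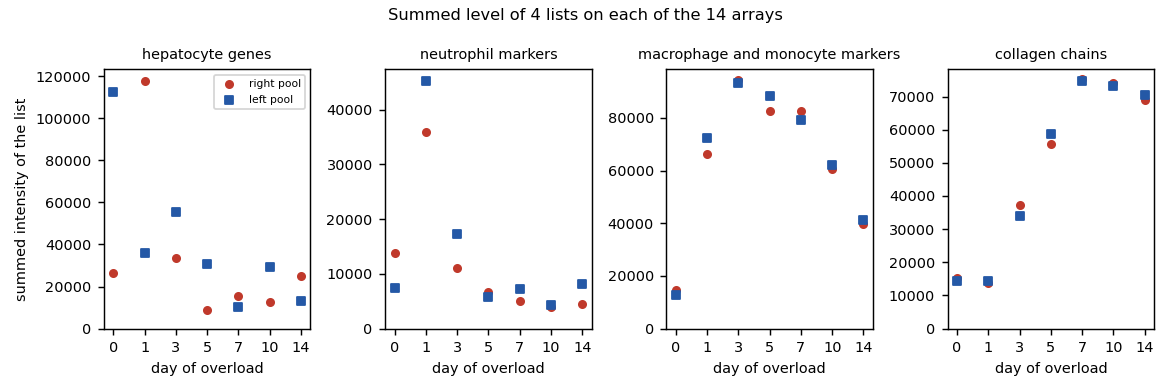
Summed intensity (linear scale from 0) of the members of 4 gene lists on each of the 14 arrays, by day of overload, with circles for right pools and squares for left pools. The left day 0 pool (112712) and the right day 1 pool (117889) stand above all others for hepatocyte genes, while collagen chains sit at 68903 and 70343 at day 14 against 15373 and 14448 at day 0.

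Sarcomere genes followed different courses up to day 14. The stretches before the starts of 4 of them are shown here, so that each course can be read beside the regulatory sequence it belongs to. Myh3 (embryonic myosin heavy chain) and Tnni1 (slow troponin I) were high through the second week, Myh7 (slow myosin heavy chain) was highest at day 14, and Myl3 (slow and ventricular essential light chain) was still below day 0. Each sequence is the 150 bases before the first start that RefSeq lists for the gene (mouse build GRCm38.p6), 5′ to 3′ on the gene's strand. Myh3 lies at chr11:67078150-67078299 on the plus strand, Myh7 at chr14:54994627-54994776 on the minus strand, Tnni1 at chr1:135799271-135799420 on the plus strand and Myl3 at chr9:110763528-110763677 on the plus strand. Capitals mark every match to 3 motifs: the E-box CANNTG bound by MyoD-family factors, the MCAT motif CATTCC bound by TEAD factors, and TATAAA. The first 2 were searched on both strands and TATAAA on the strand shown.
Myh3: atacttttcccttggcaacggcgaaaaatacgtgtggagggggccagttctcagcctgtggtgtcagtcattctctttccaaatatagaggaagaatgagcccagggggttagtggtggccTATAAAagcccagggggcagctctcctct
Myh7: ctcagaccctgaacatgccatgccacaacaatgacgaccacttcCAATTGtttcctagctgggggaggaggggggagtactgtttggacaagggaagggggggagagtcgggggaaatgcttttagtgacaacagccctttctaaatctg
Tnni1: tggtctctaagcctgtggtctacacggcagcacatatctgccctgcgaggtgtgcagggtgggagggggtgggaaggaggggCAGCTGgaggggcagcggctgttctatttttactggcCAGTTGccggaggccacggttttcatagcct
Myl3: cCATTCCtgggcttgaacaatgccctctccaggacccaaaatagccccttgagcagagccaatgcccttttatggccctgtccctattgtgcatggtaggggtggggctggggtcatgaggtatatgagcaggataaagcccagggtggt
Tnni1 held 2 E-boxes, Myh7 held 1, Myl3 held 1 MCAT match, and Myh3 held 1 TATAAA that began 29 bases before its start; no 2 matches overlapped. Over the same window of 27025 RefSeq promoters, 47.4% held CANNTG, 7.64% held CATTCC and 5.26% held TATAAA. A match is a description of the letters only.

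Genes of the extracellular matrix rose almost throughout. Of 23 measured collagen chains 19 rose and 0 fell, with a median change of 1.28 against -0.08 for all genes, and 16 of them rose past 2-fold. Of 47 matrix glycoproteins and proteoglycans 45 rose and 0 fell (median 1.34), and of 23 enzymes that hydroxylate, cross-link or process collagen 20 rose and 0 fell (median 1.23; 2 fell after quantile scaling). Postn, which encodes periostin, a matricellular protein of loaded and healing connective tissue, read 10.38 and 10.12 at day 0 and 13.67 and 13.64 at day 14, a rise of 3.40 ± 0.17 (10.6-fold, adjusted p = 9.77e-08). Cthrc1, a secreted protein of collagen-producing cells, read 8.32 and 8.19 and then 12.02 and 12.01, a rise of 3.76 ± 0.09. For both genes the 2 pools of a day lay far closer together than the 2 days did. The largest changes were picked only among called genes whose groups did not overlap, so this separation is no separate support.

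Col1a1, a chain of type I collagen, the main collagen of muscle connective tissue and tendon, read 10.89 and 10.73 at day 0 and 13.67 and 13.73 at day 14, a rise of 2.89 ± 0.09 (7.39-fold). Col3a1, of the finer type III fibrils, rose by 2.85 ± 0.08, Col8a1 by 3.21 ± 0.09, and Col12a1 and Col14a1, which coat collagen fibrils, by 3.14 ± 0.10 and 2.85 ± 0.10. Tnc (tenascin-C), which is known to appear at sites of mechanical strain, rose by 3.21 ± 0.14, from 9.26 and 8.73 to 12.23 and 12.17. The enzymes showed changes of the same size. Lox, lysyl oxidase, which cross-links collagen and elastin, rose by 3.14 ± 0.08, P4ha3, a prolyl hydroxylase subunit, by 3.19 ± 0.09 and Plod2, a lysyl hydroxylase, by 3.10 ± 0.11. None of the groups of day 0 and day 14 arrays overlapped for these genes. For the largest changes, such as Col8a1, that was a condition of naming. Over all genes 30.2% had both day 14 arrays above both day 0 arrays.

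The matrix lists were not all at their highest at day 14. Against day 10 there were 931 calls in all (4.67%), 420 higher (2.11%) and 511 lower (2.56%), and against day 7 there were 5901 (29.6%), 2691 higher (13.5%) and 3210 lower (16.1%). The count against day 10 fell to between 67 and 200 when either pool of day 10 or of day 14 was left out, and that against day 7 to 3439 without the right pool of day 7. Between day 7 and day 14, 18 of the 23 cross-linking enzymes fell and 2 rose, while among the collagen chains 4 fell and 7 rose. Lox averaged 12.84 at day 7 against 11.91 and 11.86 on the day 14 arrays, and Postn averaged 13.83 at day 7 and 13.65 at day 14. For days 3, 7, 10 and 14 in turn, the median change of the collagen chains against day 0 was 0.60, 1.10, 1.15 and 1.28; all these values share the day 0 arrays.

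Of 28 matrix proteases and inhibitors 24 rose and 1 fell. Mmp13, collagenase 3, read 7.64 and 7.72 at day 0 and 11.06 and 11.28 at day 14, a rise of 3.48 ± 0.27. Mmp14, the membrane protease that activates other matrix proteases, rose by 2.61 ± 0.08 and Mmp2, gelatinase A, by 2.12 ± 0.08. The tissue inhibitors went opposite ways. Timp1 read 8.12 and 7.72 and then 11.24 and 11.12, a rise of 3.26 ± 0.11 (9.55-fold), while Timp4, the inhibitor found mainly in heart and muscle, read 10.94 and 10.97 and then 8.48 and 8.81, a fall of 2.31 on the log2 scale (SE 0.15, 4.96-fold). Timp1 had averaged 12.98 at day 3, so it had come part of the way back, and Timp4 had averaged 7.53 at day 3.

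**Figure D2:**
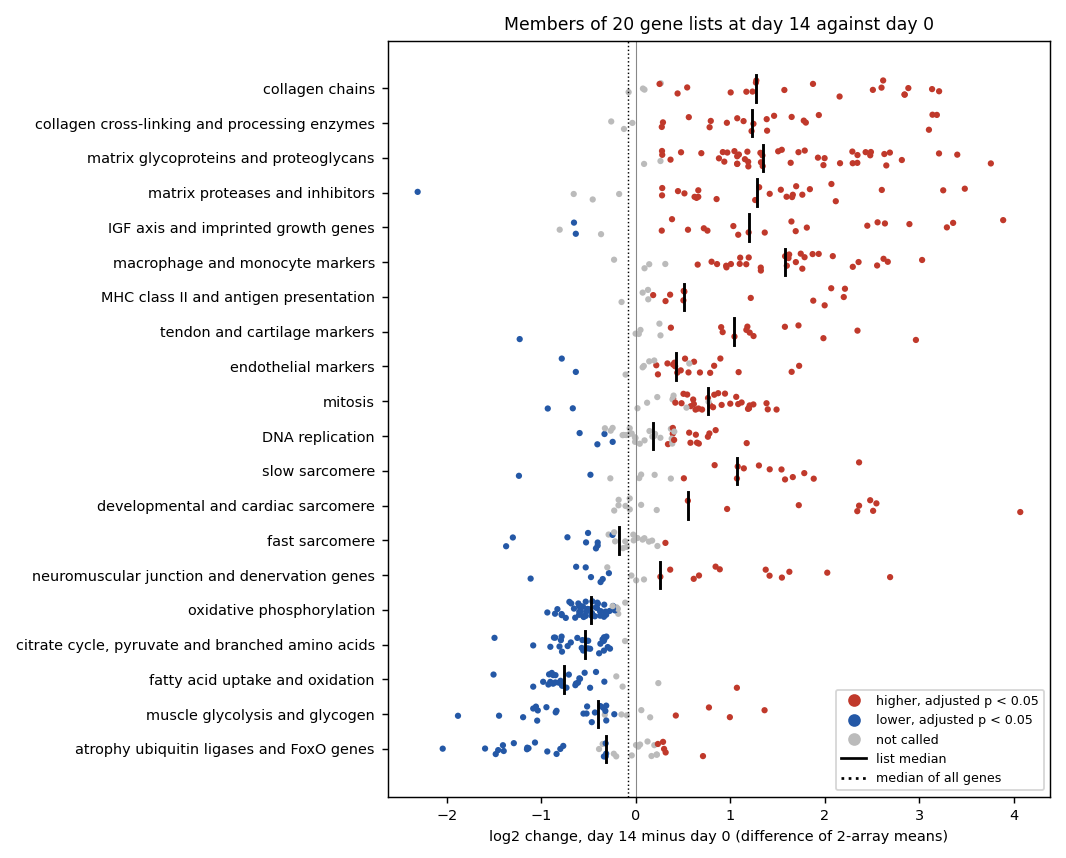
Log2 change at day 14 against day 0 of each measured member of 20 gene lists (points; red higher and blue lower at an adjusted p under 0.05, grey not called), with the median of each list as a black bar and the median of all genes (-0.08) dotted. The collagen chains (median 1.28) and matrix glycoproteins (1.34) lie almost wholly to the right, and oxidative phosphorylation (-0.47) and the citrate cycle (-0.54) to the left.

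Genes of tendon and cartilage were among those that increased late. Of 19 such markers 13 rose and 1 fell at day 14 (median 1.05), whereas the median change was -0.04 at day 3 and 0.72 at day 7. Tnmd, tenomodulin, a membrane glycoprotein of tendon cells, read 9.37 and 9.32 at day 0 and 12.40 and 12.22 at day 14, a rise of 2.97 ± 0.17 (7.82-fold). It had averaged 8.52 at day 3, below day 0, and 11.47 at day 7. Kera, keratocan, a small proteoglycan of cornea and tendon, rose by 2.35 ± 0.18, and its mean was 9.48 at day 7, 10.77 at day 10 and 11.11 at day 14. Thbs4, a thrombospondin of tendon and muscle attachments, rose by 1.99 ± 0.08, Comp by 1.18 ± 0.19 and Scx, the transcription factor of tendon progenitors, by 0.90 ± 0.09. Cytl1, a secreted protein of cartilage, fell by 1.23 (SE 0.20). Whether the dissection took the same length of tendon at each day is not given in the sources used here, and its part in these values was not tested.

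Fibroblast and progenitor markers followed: 18 of 23 rose and 3 fell (median 0.67), with 1 fall without the right day 14 pool. Mfap5, a microfibril glycoprotein, rose by 2.49 ± 0.08 and Lum, lumican, by 2.43 ± 0.12, and Pdgfra, the receptor that marks fibro-adipogenic progenitors, rose by 0.87 ± 0.09. Lum averaged 9.90 at day 3, 11.05 at day 7 and 11.81 at day 10, against 11.90 and 12.08 on the day 14 arrays. Adam12, which marks activated mesenchymal cells, rose by 2.07 ± 0.09 and had averaged 11.14 at day 7 against 9.93 on both day 14 arrays. Gsn and Tcf21 fell by 0.35 and 0.51; the call for Gsn was lost without the right pool of day 14. Hsd11b1, which liver also expresses strongly, read 8.67 and 9.36 at day 0, and its fall of 0.95 was not called without the left pool of day 0.

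Secreted regulators of Wnt signalling, which hold back or redirect Wnt ligands, stood among the largest rises. They belong to a list of 41 matrix and growth factor genes of vessels and nerve, of which 23 rose and 9 fell (median 0.42). Sfrp2 read 8.09 and 8.22 at day 0 and 11.86 and 11.71 at day 14, a rise of 3.63 ± 0.16. Sfrp4 read 8.25 and 8.07 and then 11.58 and 11.57, a rise of 3.42 ± 0.12 (10.7-fold), and Sfrp1 rose by 2.57 ± 0.10. Their courses differed: Sfrp2 averaged 11.60 at day 3 and 12.07 at day 7, while Sfrp4 averaged 8.38 at day 3, 10.11 at day 7 and 11.05 at day 10. Against day 3, where 6765 genes were called (33.9%), 3510 of them higher (17.6%) and 3255 lower (16.3%), Sfrp4 was higher at day 14 by 3.20 ± 0.12. Frzb, of the same family, went the other way, from 8.98 and 9.01 to 8.16 and 8.22, a fall of 0.80 (SE 0.10). Ccn3, a matricellular regulator of the CCN family, read 9.42 and 9.27 and then 11.39 and 11.56, and was higher than at day 3 by 2.90 ± 0.13.

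C1qtnf3 had the largest rise of all genes. This secreted C1q/TNF-related protein read 8.29 and 8.12 at day 0 and 12.50 and 12.43 at day 14, a rise of 4.26 ± 0.21 (19.2-fold). Its mean was 12.94 at day 7 and 13.06 at day 10.

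Imprinted genes, expressed from one parental copy and known for control of fetal growth, were high beside the IGF axis. Of 23 genes in the combined list 19 rose and 2 fell (median 1.20), with 4 falls without either day 1 pool and 1 without the left day 14 pool. Mest read 9.14 and 8.83 at day 0 and 12.91 and 12.85 at day 14, a rise of 3.89 ± 0.12 (14.8-fold). Meg3, a maternally expressed noncoding RNA, rose by 3.36 ± 0.10, and Plagl1, a zinc finger factor, rose by 3.29 ± 0.10. Igf2, a growth factor, read 9.93 and 9.89 and then 12.66 and 12.45, a rise of 2.64 ± 0.09. Dlk1, a Notch-family ligand active in muscle growth, rose by 2.56 ± 0.11; its mean was 8.87 at day 3, 10.61 at day 7 and 11.80 at day 10. For these 5 genes the groups did not overlap, a condition of naming where a gene was picked for the largest changes. Igf1 rose by 1.65 ± 0.22, from 9.80 and 10.39 to 11.75 and 11.73, its day 0 pools lying further apart than those of Igf2. Irs2, an insulin receptor substrate, fell by 0.65 (SE 0.08). Nnat fell by 0.63, a call that was lost without the right day 0 pool or the left day 14 pool.

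Signals of the TGF-beta and myostatin family changed in both directions: of 39 members 18 rose and 9 fell (median 0.30). Mstn, myostatin, the muscle-made inhibitor of muscle growth, read 11.39 and 11.25 at day 0 and 9.83 and 9.85 at day 14, a fall of 1.49 (SE 0.19, 2.80-fold, adjusted p = 9.67e-05). It had averaged 8.21 at day 3 and 8.28 at day 7. Acvr2b, a receptor for it, fell by 0.75 (SE 0.12). Fst, follistatin, which binds and blocks myostatin and activin, rose by 1.20 ± 0.09, from 9.18 and 9.13 to 10.29 and 10.41, above its means of 9.26 at day 3 and 9.64 at day 7. Fstl1 rose by 2.44 ± 0.08, Bmp1, which cleaves procollagen, by 1.78 ± 0.07, Chrdl1, a BMP antagonist, by 1.69 ± 0.08 and Tgfb1 by 1.12 ± 0.09. Bmp6 fell by 0.71 (SE 0.08).

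Among 17 developmental and cardiac sarcomere genes 9 rose, 0 fell and 8 were not called (median 0.55). For 3 of the 17 both day 14 arrays lay below both day 0 arrays, against 42.0% of all genes. Myh3, whose promoter is shown above, read 7.80 and 7.62 at day 0 and 11.83 and 11.73 at day 14, a rise of 4.07 ± 0.21 (16.8-fold, adjusted p = 1.3e-07), the second largest of all. Its mean had been 12.53 at day 7 and 12.23 at day 10. Myh8, perinatal myosin, rose by 2.48 ± 0.20, Actc1, cardiac actin, by 2.55 ± 0.18, Tnnt2, cardiac troponin T, by 2.51 ± 0.11 and Myl4, the embryonic and atrial light chain, by 2.35 ± 0.08. Every day 14 array lay above both day 0 arrays for these 5 genes, as for 30.2% of all genes.

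Slow-fibre genes were higher too, though not all of them. Of 20 measured, 13 rose and 2 fell (median 1.08). Tnni1 read 9.40 and 9.47 at day 0 and 11.88 and 11.71 at day 14, a rise of 2.36 ± 0.25 (5.15-fold). Tnnt1, slow troponin T, rose by 1.78 ± 0.23 and Tnnc1, slow and cardiac troponin C, by 1.58 ± 0.32. Casq2, the cardiac and slow calsequestrin that holds calcium in the sarcoplasmic reticulum, rose by 1.88 ± 0.11, and Atp2a2, the slow calcium pump SERCA2, by 1.14 ± 0.09. For days 3, 5, 7, 10 and 14 in turn, the list's medians were 0.00, 0.35, 0.07, 0.53 and 1.08.

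Myh7 was the slow gene with the widest gap between the day 14 arrays and all 12 others. It read 9.89 and 9.78 at day 0 and 11.14 and 11.37 at day 14, with means of 7.98 at day 3, 9.02 at day 7 and 9.41 at day 10. The rise against day 0 was 1.42 ± 0.42 (adjusted p = 0.0195), that against day 10 was 1.85 ± 0.42 (adjusted p = 0.0352) and that against day 3 was 3.27 ± 0.42. The call against day 0 was lost when any 1 of its 4 arrays was left out, with adjusted p between 0.0506 and 0.102, and under a robust variance prior at 0.0567. The pools of day 1, at 9.88 and 8.11, set much of its SE, and without either of them the adjusted p against day 0 was 0.000162. Myl2, the slow and ventricular regulatory light chain, read 10.98 and 10.96 and then 11.14 and 11.55, a difference of 0.37 ± 0.35 that was not called (adjusted p = 0.408). Against day 7 it was higher by 2.82 ± 0.35.

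Myl3 read 11.29 and 11.26 at day 0 and 10.00 and 10.07 at day 14, a fall of 1.24 (SE 0.33, adjusted p = 0.0111), with means of 7.90 at day 7 and 8.52 at day 10; the call was lost without the right pool of day 14. Pln, phospholamban, which restrains SERCA2, fell by 0.48 (SE 0.13), and leaving out either right pool of these 2 days ended that call. Mb, Fhl1, Mybpc1, Myh7b and Myl2 made up the 5 slow genes that were not called.

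**Figure D3:**
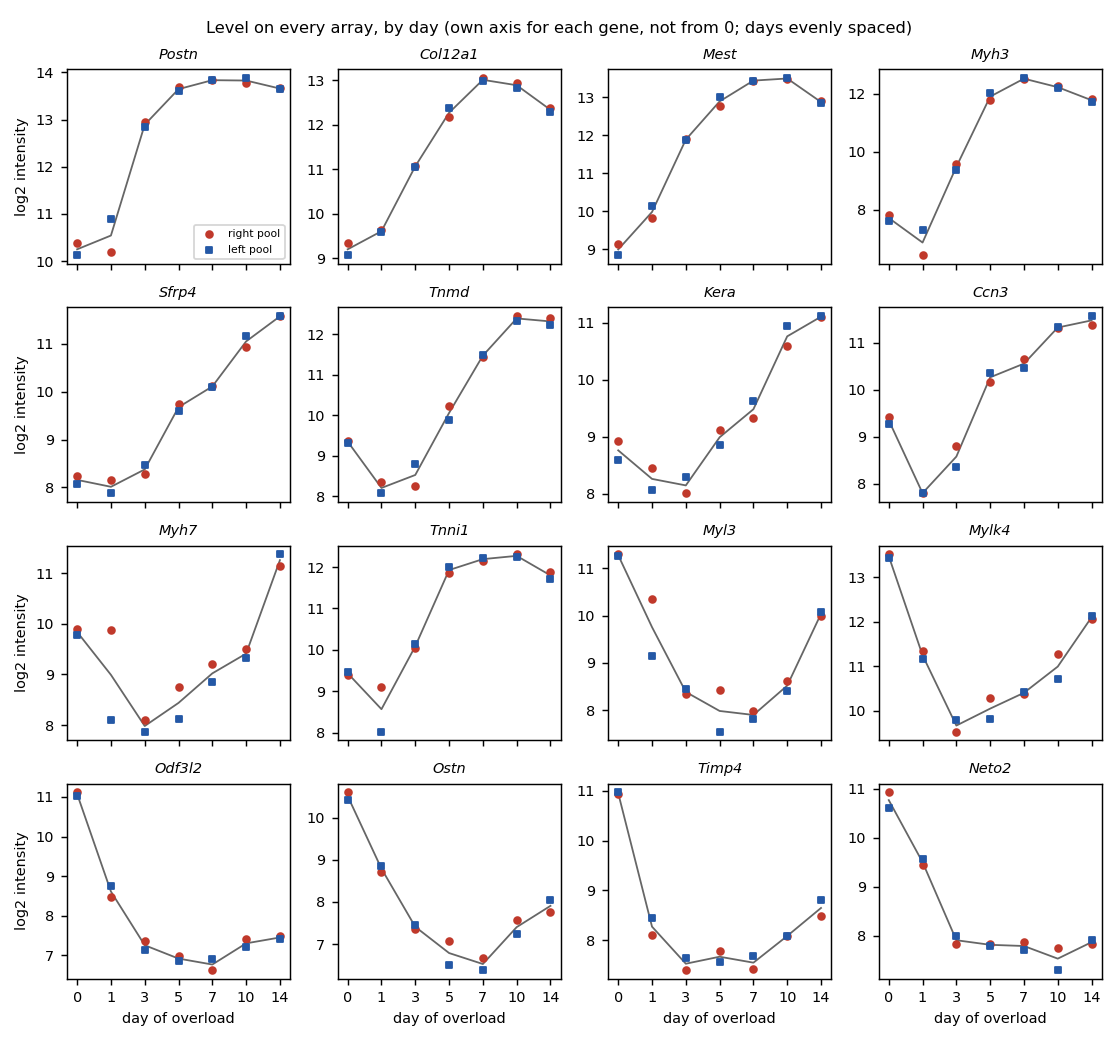
Log2 intensity of 16 genes on each of the 14 arrays by day of overload (circles right pools, squares left pools, lines day means; each panel has its own axis, which does not start at 0). Postn, Col12a1, Mest and Myh3 were high from day 5 on, Sfrp4, Tnmd, Kera and Ccn3 climbed into the second week, Myh7 went from a mean of 9.41 at day 10 to 11.26 at day 14, and Odf3l2, Ostn, Timp4 and Neto2 were far below day 0 from day 3 on.

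Fast-fibre genes lay much nearer to day 0. Of 24 measured, 9 fell, 1 rose and 14 were not called (median -0.18); the 9 falls became 4 without the right pool of day 14 and 5 without either pool of day 0, and the 1 rise was not called without any 1 of these 4 pools. Myh4, the fastest myosin heavy chain, read 13.91 and 13.95 and then 13.51 and 13.54, a fall of 0.40 (SE 0.12, adjusted p = 0.0209) whose call was lost when any 1 of the 4 arrays was left out. Myh1 and Myh2, the heavy chains of the other fast fibre types, differed by 0.23 ± 0.11 and 0.17 ± 0.15 and were not called. Myosins share stretches of sequence, so their probe sets may read one another to an extent that was not tested. Mylk4, a muscle myosin light chain kinase, read 13.51 and 13.43 and then 12.06 and 12.13, a fall of 1.37 (SE 0.18), yet it was higher than at day 10 by 1.11 ± 0.18 and had averaged 9.66 at day 3. Mylk2, the skeletal light chain kinase, fell by 1.30 (SE 0.14) and Myoz3, a Z-disc protein of fast fibres, by 0.72 (SE 0.16). From day 7 to day 14, 23 of the 24 fast genes rose and 0 fell.

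For 15 pairs of related genes the change of the ratio was tested within arrays, with p adjusted over the 15 pairs. The log2 ratio of Tnni1 to Tnni2, slow against fast troponin I, was higher at day 14 by 2.79 ± 0.28 (adjusted p = 2.86e-06), being -4.32 and -4.30 at day 0 and -1.35 and -1.69 at day 14. It was higher by 1.92 ± 0.27 for Tnnt1 to Tnnt3, 1.87 ± 0.37 for Tnnc1 to Tnnc2, 1.87 ± 0.13 for Casq2 to Casq1, 1.82 ± 0.44 for Myh7 to Myh4, 1.26 ± 0.11 for Atp2a2 to Atp2a1 and 1.10 ± 0.12 for Tpm3 to Tpm1. The light chains did not join them: the ratio of Myl3 to Myl1 changed by -1.22 ± 0.33 (adjusted p = 0.00454), and Myl2 to Mylpf differed by 0.28 ± 0.30 (adjusted p = 0.377). A metabolic pair also went the other way. Ldhb, the lactate dehydrogenase subunit of oxidative tissue, fell by 1.45 (SE 0.20), and its ratio to Ldha changed by -1.22 ± 0.20. Eef1a1, the general translation elongation factor, rose by 1.05 ± 0.07 while its muscle paralogue Eef1a2 read 13.18 and 13.18 and then 12.68 and 12.83; the ratio was higher by 1.47 ± 0.13. Utrn, utrophin, rose by 0.80 ± 0.07 and the ratio of Utrn to Dmd, dystrophin, by 0.67 ± 0.15.

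**Figure D4:**
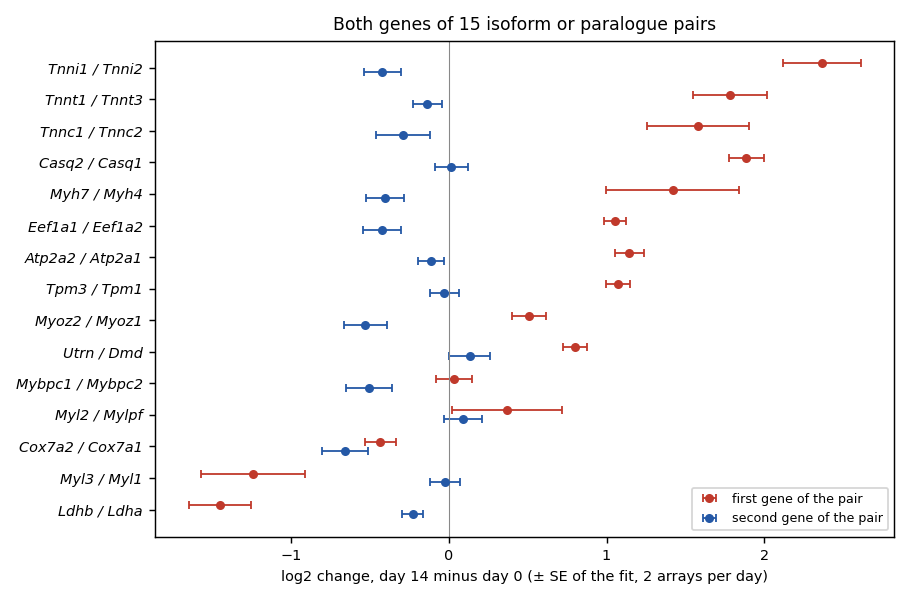
Log2 change at day 14 against day 0 (± SE of the fit, 2 arrays per day) of both genes of 15 isoform or paralogue pairs, the first-named in red and the second in blue. Slow troponins, Casq2 and Myh7 sit to the right of their fast partners, and Myl3 and Ldhb to the left of theirs.

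Regulators of myogenesis went both ways, as genes at large did. Of 30 satellite cell, myogenic and fusion genes 9 rose and 8 fell (median 0.03), beside 21.4% higher and 20.7% lower among all genes. Mymk, myomaker, the membrane protein that drives myoblast fusion, read 8.61 and 8.61 at day 0 and 11.01 and 10.96 at day 14, a rise of 2.38 ± 0.13 (5.19-fold), having averaged 12.30 at day 7. Mymx, its partner in fusion, differed by -0.06 ± 0.15 and was not called. Myog, myogenin, the factor of differentiating myoblasts, rose by 1.42 ± 0.17, from 7.67 and 7.60 to 9.004 and 9.096, while its change from day 10 was -1.05 ± 0.17 (adjusted p = 0.0091). Pax7, the satellite cell factor, rose by 0.40 ± 0.09, and Myod1 differed by -0.11 ± 0.12 and was not called. Six4 and Eya1, partners in the Six-Eya complex that maintains fast-fibre genes, fell by 0.57 (SE 0.12) and 1.03 (SE 0.10).

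Genes of the neuromuscular junction and of denervated muscle also changed in both directions, 12 of 23 rising and 7 falling; the falls numbered 4 without the right pool of day 0. Runx1, which rises in denervated muscle, read 9.13 and 8.83 and then 11.74 and 11.61, a rise of 2.69 ± 0.10. Ncam1, an adhesion molecule of newly formed and denervated fibres, rose by 2.03 ± 0.12. Chrna1 and Chrng, the alpha and fetal gamma subunits of the acetylcholine receptor, rose by 1.63 ± 0.10 and 1.38 ± 0.20, while Chrne, the adult subunit, fell by 0.53 (SE 0.11). Chrng had averaged 10.88 at day 7 against 9.39 and 9.36 on the day 14 arrays, and Chrne 8.11 at day 3 against 9.80 and 9.86. Musk, the receptor kinase of the junction, fell by 0.63 (SE 0.07). Of 21 Schwann cell and nerve markers 6 rose and 2 fell, and one of the 6 was Ncam1. The falls numbered 6 under each of the 3 rescalings, 4 without either pool of day 1 or of day 10, and 1 without the left day 14 pool. Gldn, gliomedin, rose by 1.47 ± 0.11, from 7.65 and 7.45 to 8.90 and 9.14, and had averaged 7.75 at day 7. Sox10, a defining Schwann cell factor, fell by 0.26 (SE 0.08), a call that was lost without the right day 0 pool or the left day 14 pool.

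Mechanical load and Z-disc genes showed 13 rises and 7 falls among 30; only 3 of the falls were called without the right day 0 pool, the right day 14 pool or the left day 14 pool. Ankrd1, a titin-associated ankyrin protein of stressed muscle, read 9.21 and 8.89 and then 11.90 and 11.70, a rise of 2.75 ± 0.13 (6.74-fold), having averaged 13.69 at day 1. Csrp3, muscle LIM protein, rose by 1.30 ± 0.11, Ankrd2 by 0.83 ± 0.13, and Igfn1, a large Z-disc protein, by 1.68 ± 0.10 with means of 7.41 at day 3 and 8.76 at day 10. Tcap, telethonin, which caps titin, fell by 0.85 (SE 0.15), and Ky, a protein whose loss causes kyphoscoliosis in mice, by 0.65 (SE 0.14). Of 24 dystrophin complex and integrin genes 13 rose and 2 fell. Itga5, the fibronectin receptor subunit, rose by 1.81 ± 0.08 and Sntb2, a syntrophin, by 1.57 ± 0.10, and Nos1, neuronal nitric oxide synthase, which muscle anchors at the dystrophin complex, fell from 11.07 and 11.00 to 9.17 and 9.42, by 1.74 (SE 0.10).

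Of 29 genes of excitation-contraction coupling and ion channels 14 fell and 5 rose (median -0.29), with 9 falls when the right pool of day 14 was left out. Scn4b, a sodium channel subunit, read 11.62 and 11.66 and then 9.50 and 10.04, a fall of 1.87 (SE 0.19), after a mean of 7.63 at day 7. Mrln, which encodes myoregulin, a micropeptide that restrains SERCA, fell by 1.70 (SE 0.10), Kcna7 by 1.36 (SE 0.16), Clcn1, the muscle chloride channel, by 1.19 (SE 0.16) and Kcnj2 by 1.07 (SE 0.10). Sln, sarcolipin, another SERCA inhibitor, rose by 1.54 ± 0.17, from 6.83 and 7.04 to 8.48 and 8.48, with means of 7.52 at day 3 and 8.04 at day 7. Kcnn3, a calcium-activated potassium channel, rose by 1.21 ± 0.08. Atp1b4 read 9.26 and 9.21 and then 11.83 and 11.61, a rise of 2.49 ± 0.20.

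The energy genes were lower as a body and by modest amounts. Of 51 oxidative phosphorylation genes 46 fell and 0 rose (median -0.47), and for all 51 both day 14 arrays lay below both day 0 arrays, against 42.0% of all genes. Of 30 genes of the citrate cycle, pyruvate and branched amino acid use 29 fell and 0 rose (median -0.54). Of 30 genes of fatty acid uptake and oxidation 26 fell and 1 rose (median -0.76), and of 30 genes of glycolysis and glycogen 21 fell and 4 rose (median -0.40). Ndufa9, a subunit of respiratory complex I, and Ndufa4, first assigned to that complex, fell by 0.83 (SE 0.12) and 0.86 (SE 0.09). No member of the oxidative phosphorylation list fell past 2-fold. Cox7a1, the muscle form of a cytochrome oxidase subunit, read 13.34 and 13.35 and then 12.59 and 12.78, a fall of 0.65 (SE 0.15), and Cox7a2, the general form, fell by 0.43 (SE 0.10). The ratio of these 2 forms changed by 0.22 ± 0.13, which was not called (adjusted p = 0.119).

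Between day 7 and day 14 these genes moved back toward day 0: 50 of the 51 oxidative phosphorylation genes rose and 0 fell, as did 27 of 30 citrate cycle genes with 0 falling. Cox7a1 had averaged 10.91 at day 7 and 12.24 at day 10. Ppargc1a, the coactivator PGC-1 alpha that drives mitochondrial genes, read 11.24 and 11.16 at day 0 and 10.50 and 10.65 at day 14, a fall of 0.63 (SE 0.17) that leaving out either right pool of these 2 days brought below the call, after a mean of 8.23 at day 3. Ppara, the receptor that drives fat oxidation, read 9.87 and 10.02 and then 8.40 and 8.36, a fall of 1.57 (SE 0.20), with 8.08 and 7.93 on the day 10 arrays. Of 29 mitochondrial and fibre type regulators 5 rose and 16 fell (median -0.27), with 3 rises without the left day 0 pool or the left day 14 pool. Myoz2, calsarcin-1, a calcineurin-binding Z-disc protein of slow fibres, rose by 0.51 ± 0.11, and Rcan1, a calcineurin inhibitor, by 0.53 ± 0.10. Esrrg, an estrogen-related receptor of oxidative fibres, differed by 0.00 ± 0.10 and was not called.

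Single enzymes fell further. Slc27a1, a fatty acid transport protein, fell by 1.51 (SE 0.10), Lpl, lipoprotein lipase, by 1.09 (SE 0.09), Me1, malic enzyme, 2.82-fold (SE 0.10 on the log2 scale) and Pcx, pyruvate carboxylase, by 1.09 (SE 0.11). Pfkfb3, which makes the activator of phosphofructokinase, read 11.67 and 11.51 and then 9.61 and 9.80, a fall of 1.88 (SE 0.12, 3.69-fold), and its mean was 9.06 at day 10. Slc2a4, the insulin-regulated glucose transporter GLUT4, fell by 1.04 (SE 0.18). Nt5c1a, a cytosolic nucleotidase, fell by 2.01 (SE 0.16, 4.02-fold). Cpt1a, the form of carnitine palmitoyltransferase found mainly in liver and other non-muscle tissue, was the fat oxidation gene that rose, by 1.07 ± 0.13, and Pgm2, Pygb (brain glycogen phosphorylase) and Pfkp (platelet phosphofructokinase) rose by 1.36 ± 0.10, 1.00 ± 0.09 and 0.77 ± 0.14. Of 14 creatine and purine energy enzymes 5 rose and 7 fell. Gamt and Gatm, the enzymes of creatine synthesis, rose by 1.13 ± 0.14 and 0.91 ± 0.12, whereas Ckmt2, mitochondrial creatine kinase, fell by 0.91 (SE 0.19).

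Atrophy genes were mostly lower. Of 37 ubiquitin ligases and FoxO-linked genes 19 fell and 5 rose (median -0.32), 11 of the falls past 2-fold; the 5 rises became 2 without the left day 0 pool, and 3 without the left day 14 pool or under each of 3 rescalings. Fbxo32, atrogin-1, read 12.34 and 12.33 at day 0 and 10.90 and 10.96 at day 14, a fall of 1.41 (SE 0.08, 2.65-fold). Trim63, MuRF1, fell by 0.77 (SE 0.09) after a mean of 12.99 at day 1 and 9.95 at day 7. The largest falls of the list were those of 3 Asb ligase adaptors: Asb4 fell by 2.04 (SE 0.11), from 9.60 and 9.46 to 7.36 and 7.62, Asb10 3.02-fold (SE 0.12 on the log2 scale) and Asb14 by 1.48 (SE 0.15). The rises included Ctsl, a lysosomal protease also made by macrophages, by 0.71 ± 0.09. Foxo1, a FoxO factor, rose too, by 0.32 ± 0.08, and 13 of the 37 genes were not called.

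The largest falls of all included Odf3l2, Neto2, Ostn and Gdap1, and a block of plasma protein genes that has to be read apart. Odf3l2 fell most, from 11.11 and 11.04 at day 0 to 7.49 and 7.42 at day 14, by 3.62 (SE 0.12, 12.3-fold, adjusted p = 6.18e-09), and had been at 6.77 at day 7. Neto2, an auxiliary protein of kainate-type glutamate receptors, read 10.92 and 10.61 and then 7.82 and 7.91, a fall of 2.90 (SE 0.14). Ostn, osteocrin or musclin, a secreted peptide that binds the natriuretic clearance receptor, read 10.59 and 10.42 and then 7.77 and 8.05, a fall of 2.60 (SE 0.18). Gdap1, a mitochondrial outer membrane protein, fell by 2.38 (SE 0.14). The largest falls were taken only from genes whose groups did not overlap. For these 4 genes the means of days 3 to 10 lay below day 0 by more than the spread between pools. Those means were set against the same day 0 arrays that entered the choice of the genes, so this is no separate support. Npr3, the clearance receptor itself, read 9.18 and 9.09 and then 9.70 and 9.73, a rise of 0.58 ± 0.07.

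Of the 15 largest falls, Orm1, Hrg, Saa2, Itih4, Orm2, Saa4 and Fgl1 encode plasma proteins made by liver. Orm1 read 9.42 and 12.55 at day 0 and 8.38 and 8.13 at day 14, a fall of 2.73 (SE 0.98, adjusted p = 0.0432). Without the left pool of day 0 its change was -1.16 (adjusted p = 0.354), and none of the 7 kept its call without that pool. In the hepatocyte list 1 of 23 genes fell, Saa2, and 0 rose; without the left day 0 pool 0 fell, and without the right day 0 pool 19 fell. Ces1d, a carboxylesterase, read 9.58 and 10.54 and then 7.92 and 7.21, a fall of 2.50 (SE 0.54), and Inmt, a methyltransferase, read 10.25 and 11.05 and then 8.43 and 8.19, a fall of 2.35 (SE 0.58) that was lost without that pool. The summed hepatocyte genes moved with these values, at 26430 and 112712 on the day 0 arrays and 24968 and 12952 on the day 14 arrays, and their part in the falls was not tested.

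Markers of macrophages and monocytes were still well above day 0, while most neutrophil, lymphocyte, mast cell and eosinophil markers given below were not called. Of 33 macrophage and monocyte markers 29 rose and 0 fell (median 1.58; 1 fell with equal array medians), and their summed intensity was 14669 and 12760 at day 0 and 39698 and 41364 at day 14. Ms4a7, a membrane protein of tissue macrophages, read 6.91 and 6.99 and then 9.98 and 9.98, a rise of 3.03 ± 0.07 (8.18-fold). Adgre1, F4/80, rose by 2.36 ± 0.10, Mrc1, the mannose receptor, by 1.87 ± 0.09, Cd68 by 1.79 ± 0.08 and Csf1r 3.03-fold. From day 7 to day 14, 29 of the 33 fell and 2 rose, and Cd68 had averaged 12.76 at day 3 against 10.90 and 10.96 on the day 14 arrays. Of 28 lysosome and cathepsin genes 21 rose and 3 fell. Ctsk, cathepsin K, a collagen-degrading protease, read 8.50 and 8.14 and then 11.14 and 11.22, a rise of 2.87 ± 0.16.

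Of 16 MHC class II and antigen presentation genes 12 rose and 0 fell, led by H2-Ab1 (2.21 ± 0.08), H2-Aa (2.20 ± 0.08) and Ctss, cathepsin S, which trims the invariant chain (2.07 ± 0.09). Cd74, the invariant chain, read 10.09 and 10.05 and then 12.07 on both arrays. H2-Aa read 10.26 and 10.10 and then 12.38 on both arrays, with means of 11.25 at day 1 and 12.77 at day 10. Of 16 complement genes 9 rose and 1 fell; C3ar1, C1qb and C1qa rose by 2.37 ± 0.09, 2.23 ± 0.10 and 1.74 ± 0.10. C7, a late complement component, read 10.42 and 10.51 and then 9.89 and 10.13, a fall of 0.45 (SE 0.17) that was lost without any 1 of several arrays, while it was higher than at day 10 by 1.31 ± 0.17.

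Of 36 chemokines and cytokines 17 rose and 4 fell, the falls becoming 2 without the right day 0 pool or the left day 14 pool. Ccl8 read 6.39 and 6.47 and then 9.25 and 9.54, a rise of 2.97 ± 0.14 (7.82-fold), and Cxcl16 rose by 1.91 ± 0.09. Ccl2, the monocyte attractant, was above day 0 by 0.88 ± 0.12, while its change from day 3 was -3.77 ± 0.12. Ccl3 changed from day 10 by -1.89 ± 0.15 and Ccl5 by -1.004 ± 0.12. Il15, a cytokine that muscle makes, fell by 1.05 (SE 0.11), from 9.16 and 8.82 to 7.86 and 8.01. Of 22 interferon response genes 16 rose and 1 fell (median 0.64, against 2.37 at day 1); Oasl2 rose by 1.40 ± 0.10, and Rsad2, viperin, fell by 0.55 (SE 0.14) after a mean of 12.12 at day 1, a call lost without the right pool of day 0.

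Of 17 neutrophil markers 0 rose, 1 fell and 16 were not called, though the list's median change of -0.66 lay below the -0.08 of all genes. For days 1, 3, 5, 7 and 10 in turn the medians were 2.09, 0.12, -0.85, -1.07 and -1.16, so the list had been below day 0 from day 5. The day 0 and day 14 pools differed widely, and the count of falls became 4 without the left day 0 pool, 2 without either day 1 pool and 0 without the right day 0 or right day 14 pool. The fall of Lcn2 was lost without either day 0 pool or the right day 14 pool. Of 23 T and B lymphocyte markers 6 rose and 2 fell, with 2 rises without the left pool of day 0 and 3 without either pool of day 14. The falls of that list were 1 after quantile scaling, 5 after the genes tested were set to equal medians, 1 without the right day 0 pool and 0 among the brighter genes, where 2 rose. Cd4 read 7.34 and 7.32 and then 8.08 and 8.01, a rise of 0.72 ± 0.11. Ms4a1, CD20 of B cells, fell by 0.45 (SE 0.10). Of 13 mast cell and eosinophil markers 3 rose and 1 fell (2 fell under both median rescalings), with Cpa3, mast cell carboxypeptidase, higher by 0.63 ± 0.12.

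**Figure D5:**
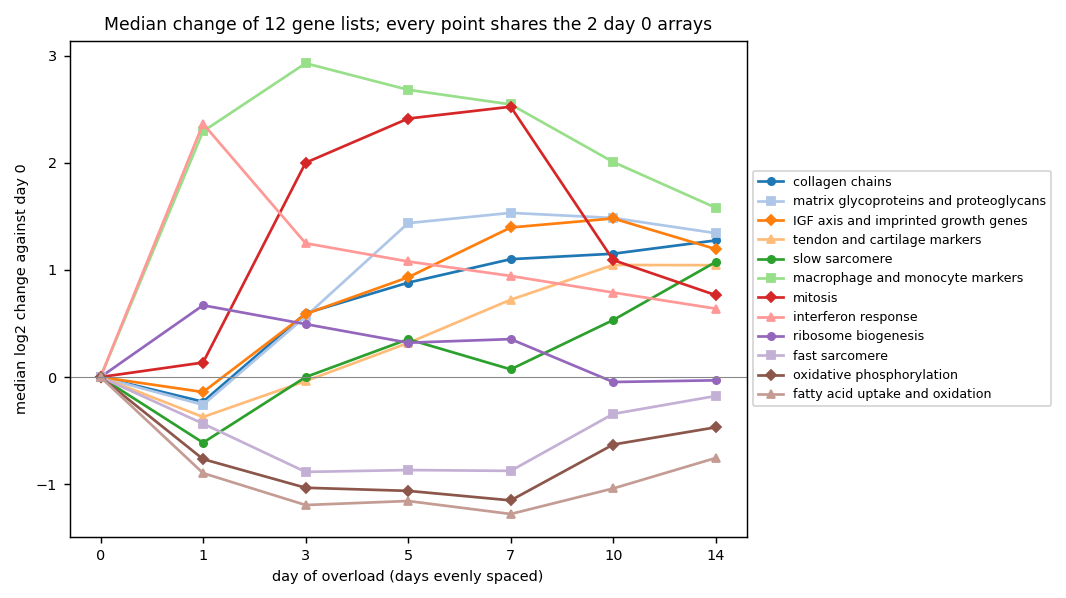
Median log2 change against day 0 of 12 gene lists at each day of overload; each point rests on the 2 arrays of that day and the same 2 arrays of day 0. Macrophage (1.58) and mitosis (0.77) medians at day 14 lay below their own highest values of 2.93 and 2.53, the slow sarcomere list (1.08) had its highest value at day 14, and oxidative phosphorylation (-0.47) was closer to 0 than on any earlier day of overload.

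Cell division genes lay between day 0 and day 7. Of 39 mitosis genes 30 rose and 2 fell (median 0.77), and from day 7 to day 14, 38 fell and 1 rose. Leaving out the left pool of day 0, or instead that of day 14, brought the 30 rises to 17. The day 0 pools differed in these genes: their summed intensity was 10629 in the right and 8154 in the left pool, against 13226 and 14571 at day 14. Mki67, the proliferation marker Ki-67, read 9.003 and 7.77 at day 0 and 9.49 and 9.65 at day 14, a rise of 1.19 ± 0.38 that was not called without the left day 0 pool or either day 14 pool. Ccna2, cyclin A2, rose by 1.49 ± 0.29, from 8.34 and 7.50 to 9.34 and 9.48, after a mean of 11.21 at day 7. Pttg1, securin, fell by 0.93 (SE 0.08).

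Of 40 DNA replication genes 13 rose and 4 fell. The rises became 5 without the left day 0 pool and 7 without the left day 14 pool, and the falls 2 without either right pool and 7 after quantile scaling. Mcm6, of the replicative helicase, read 7.88 and 7.33 and then 8.69 and 8.87, a rise of 1.17 ± 0.17, and Tyms, thymidylate synthase, rose by 0.85 ± 0.10. Among 25 cell cycle inhibitors and p53 targets 11 rose and 3 fell, with 1 fall without the right day 0 pool. Ccnd1 and Ccnd2, G1 cyclins, rose by 1.31 ± 0.11 and 1.29 ± 0.09. Cdkn1c, the imprinted inhibitor p57, rose by 1.08 ± 0.10, and Gadd45g, a stress-induced gene, fell by 1.22 (SE 0.10).

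Vessel genes showed most endothelial markers up and the main angiogenic ligand down. Of 26 genes in the endothelial list 18 rose and 2 fell (median 0.43). The 2 falls were those of Vegfa and Flt1, which the list includes. Apln, apelin, read 8.77 and 8.35 and then 10.20 and 10.38, a rise of 1.73 ± 0.12, and its receptor gene Aplnr rose by 1.65 ± 0.10, from 9.14 and 9.15 to 10.66 and 10.93. Pecam1 rose by 0.83 ± 0.07 and Plvap by 1.09 ± 0.07. Vegfa read 11.97 and 11.99 and then 11.11 and 11.29, a fall of 0.78 (SE 0.12), Vegfb fell by 0.95 (SE 0.08) and Flt1, a receptor for both, by 0.63 (SE 0.09). Of 16 pericyte and smooth muscle markers 8 rose and 1 fell, Pdgfrb by 1.05 ± 0.08 upward and Lmod1 by 0.58 (SE 0.10) downward. Of 18 adipocyte markers 8 fell and 1 rose, with 5 falls without the left day 14 pool. Plin4, a lipid droplet protein, fell by 1.22 (SE 0.09), Pparg rose by 0.38 ± 0.07, and Adipoq, adiponectin, differed by 0.04 ± 0.29 and was not called. Of 4 erythrocyte genes 2 fell, Bpgm by 1.64 (SE 0.09) and Alas2 by 1.18 (SE 0.16), and of 15 keratinocyte genes 1 rose and 4 fell, the falls becoming 1 without the left day 14 pool and 0 among the brighter genes.

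Genes of ribosome production had a median change near 0. Of 49 ribosome biogenesis genes 6 rose, 13 fell and 30 were not called (median -0.03); the falls became 20 after the genes tested were set to equal medians and 8 without either right pool, and the rises 2 without either left pool, 3 with equal array medians and 2 after that first rescaling. From day 3 to day 14, 45 of the 49 fell and 0 rose. Npm1, nucleophosmin, averaged 10.93 at day 3 against 10.32 and 10.19 on the day 14 arrays, and Rrs1 fell by 1.01 (SE 0.16). Of 37 cytosolic ribosomal proteins 10 rose and 1 fell, and after the same rescaling 4 rose and 5 fell, so the balance of the list depends on the scaling. The falls were 3 after quantile scaling and 4 with equal array medians, and the rises became 6 without the right and 5 without the left day 0 pool and 5 without the left day 14 pool. Rpl3l, the muscle-specific paralogue of Rpl3 and the member that fell with the values as deposited, read 12.13 and 12.22 and then 10.80 and 11.18, a fall of 1.18 (SE 0.21), and was higher than at day 7 by 2.25 ± 0.21. Of 37 translation factors and tRNA synthetases 7 rose and 15 fell, with 4 rises without the left day 0 pool or either day 14 pool and after that rescaling.

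Of 32 endoplasmic reticulum genes 17 rose and 4 fell. Folding enzymes of the secretory path led the rises, Ppib by 1.25 ± 0.07 and Pdia3 by 1.15 ± 0.08, and the stress targets Chac1 and Herpud1 fell by 1.43 (SE 0.12) and 0.57 (SE 0.06). Of 26 genes of amino acid transport, serine and polyamine synthesis 12 rose and 7 fell. Slc38a1 rose by 2.03 ± 0.13, and Smox, spermine oxidase, read 12.26 and 12.13 and then 10.38 and 10.50, a fall of 1.76 (SE 0.10). Of 31 heat shock, antioxidant and metallothionein genes 9 rose and 11 fell, with 5 rises without the left day 0 pool. Mt2, a metallothionein, rose by 1.12 ± 0.09 and Nqo1, a quinone reductase, fell by 1.79 (SE 0.12). Hmox1, heme oxygenase 1, was above day 0 by 0.93 ± 0.09, and its change from day 7 was -2.42 ± 0.09.

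Of 27 immediate early genes 10 rose and 3 fell, the falls becoming 6 after the genes tested were set to equal medians and 1 when only the arrays of days 0 and 14 were fitted. Myc read 8.199 and 8.14 and then 9.42 and 9.28, a rise of 1.18 ± 0.09, after a mean of 12.03 at day 1, and Nr4a2 rose by 1.14 ± 0.08. Nr4a1, an orphan receptor of active muscle, fell by 0.97 (SE 0.10). Of 17 circadian clock genes 0 rose and 9 fell; Hlf fell by 1.14 (SE 0.08) and Bhlhe41 by 0.81 (SE 0.09), and Dbp, a clock output gene, differed by 0.11 ± 0.09 and was not called. Among 25 genes of sarcomere giants and thin filament caps 6 rose and 10 fell, the falls becoming 5 without either right pool and the rises 3 without the left day 0 pool or either day 14 pool and under both median rescalings. Myom3, an M-band protein, rose by 1.08 ± 0.11 and Smyd2, a methyltransferase that acts on the myosin chaperone Hsp90, fell by 1.07 (SE 0.08).

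Some genes had day 14 levels outside the range of every other day. Both day 14 arrays lay above all 12 other arrays for 506 genes (2.54%) and below them for 227 (1.14%), and 337 and 105 of these were called against day 0. The counts above and below differed widely between days: they were 4556 and 2967 for day 0, 1752 and 2566 for day 1, 658 and 568 for day 3, 85 and 379 for day 5, 899 and 840 for day 7, and 401 and 339 for day 10. Beside Myh7, the genes with the widest gap above were Ablim1, an actin-binding LIM protein, P3h2, a prolyl 3-hydroxylase of basement membrane collagen, Scn2a, a sodium channel, Hmcn2, Map3k7cl, Pmp2, a myelin lipid carrier, and Npr3. Ablim1 read 9.79 and 9.75 at day 0 and 11.07 and 11.09 at day 14, a rise of 1.31 ± 0.06, with a mean of 10.49 at day 10. P3h2 read 9.29 and 8.99 and then 10.20 and 10.36, a rise of 1.14 ± 0.15, with means of 8.62 at day 3 and 9.49 at day 10.

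Below all other arrays, the widest gaps were those of Pla2g7, Rsad2, Alg3, Tead4, Tnfsf14, Pmaip1, Slc15a4 and Eif5a. Pla2g7, the platelet-activating factor hydrolase of macrophages, read 11.35 and 11.28 at day 0 and 10.45 on both arrays at day 14, a fall of 0.86 (SE 0.08), and had averaged 10.76 at day 10. Tead4, a factor that binds MCAT motifs, read 10.01 and 9.84 and then 9.47 and 9.41, a fall of 0.48 (SE 0.08). Eif5a, a translation factor, fell by 0.31 (SE 0.07). The calls for Tnfsf14 and Pmaip1 were lost without 1 array, Tnfsf14 for each of the 4 and Pmaip1 for the right day 0 pool.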

How the data were processed

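The authors deposited 1 intensity per probe set on a linear scale, made with Partek software per the submitters' processing notes; its version, the summarising and the normalization are not given in the sources used here. Array medians lay between 242.8 and 254.9. The deposited intensity was taken to log2 with no further normalization. Of 35556 probe sets 21789 had 1 gene symbol, 1621 several and 12146 none listed; for 998 genes with several probe sets the brightest was used. The labels give 100 ng of RNA in the design and 250 ng in the labelling protocol.

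Each gene was fitted in limma 3.58.1 (R 4.3.3), with 1 mean per day over all 14 arrays (7 residual degrees of freedom, 3.88 from the prior), two-sided. A fit of the same form was run on simulated data with independent noise and few changed genes. That setting differs from the data, where 42.1% of genes were called, so it does not check the calls made here. The 52 gene lists (1396 measured members, some in several lists) were described by counts and medians. Genes were named by rule: the 15 largest changes each way against day 0, the 3 largest each way per list, the 6 largest each way against days 10, 7 and 3, the 8 widest gaps above and below all other arrays, a panel and the pairs; Mb, Fhl1 and Myh7b were named after their values were seen. The largest changes were taken among called genes whose arrays did not overlap, and the widest gaps among genes called against day 0. Members, lists and tests were chosen with earlier results of these data known. Alternatives were other scalings, filters, priors, thresholds, arrays in the fit, the side as a block, and each array left out. Figures were drawn with matplotlib 3.10.9.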

Additional observations from a re-analysis of the deposited data

Results flagged for a closer look

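A signal appeared in data that the comparison of genes did not use: of the 12146 probe sets with no listed gene, 1263 were called higher at day 14 than at day 0. Their genes are not named here, and no explanation of the value was tested.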

How the results depend on the processing

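Against day 0 the 8394 calls were 1233 past 2-fold and 1356 under limma's treat against 1.5-fold, and between 6052 (without the left pool of day 14) and 8717 with 1 array left out. Against day 10 the 931 calls were 1544 when the dimmest of 3 equal classes of genes was left out, 1431 with a trended prior, 14 past 2-fold and 1 under treat, and 67 to 1168 with 1 array left out. Against day 7 the 5901 were 589 past 2-fold and 446 under treat, and 3439 to 5952 with 1 array left out. Against day 3 the 6765 were 1021 past 2-fold and 1062 under treat, and 5254 to 6907 with 1 array left out. No named gene and no isoform pair changed direction with a call under any alternative run. The balance of counts did turn: against day 0, 4269 higher and 4125 lower became 3603 and 6225 with equal medians of the genes tested. With the side as a replicate block there were 8109, 731, 5596 and 6595 calls. Deviations of right pools correlated in both directions between days (from -0.583 to 0.438, median -0.0624, 9 of 21 over 0.1). Between days 0 and 14 the correlation was -0.367. Whether pools of a side share more than a label was not tested. The alternative that sets the genes tested to equal medians was chosen after seeing the data. Where an array left out ended a call, the cause was not tested. With 2 pools per day, changes near the median SE of 0.0988 were not detectable.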
